A study of Mus musculus with 753 samples.

Results

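The cells described here are the differentiated keratinocytes of a Smart-seq2 data set of single mouse epidermal cells, 52 of the 684 cells in the authors' annotation. A cell was a member if its annotated identity was uHF-II or uHF-III, the differentiated layers of the upper hair follicle, or IFE-DI or IFE-DII, the differentiated layers of the interfollicular epidermis. There were 15 uHF-II, 27 uHF-III, 8 IFE-DI and 2 IFE-DII cells, so 42 of the 52 carried a follicle identity. They were set against 115 uHF-I cells, the remaining upper follicle identity, and against IFE-B cells, the basal layer of the interfollicular epidermis, of which 373 were annotated and 369 with at least 200 detected genes entered the means.

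A keratinocyte that leaves the basal layer stops dividing, exchanges the basal keratins Krt5 and Krt14 for other keratins, and builds up the proteins, proteases and lipids of a cornified barrier. In the interfollicular epidermis the new keratins are Krt1 and Krt10. In the upper follicle and sebaceous duct, Krt79 and Krt17 mark the suprabasal cells, and the transcription factor Gata6 is expressed there.

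Cells came from the strain labelled Gata6EFGPCreERT2 Rosa26-fl/STOP/fl-tdTomato, of genotype Cre (+/-) tdTomato (+/-). The mice were 8 to 12 weeks old at lineage labelling, when their clipped back skin received topical 4-hydroxytamoxifen. The label marks cells that expressed Gata6 at that time, and their progeny, with tdTomato (lin+), and cells without tdTomato are lin-. The Gata6 promoter drives the recombinase, so the label depends on Gata6 expression at that time. All groups carried both alleles and received the drug, lin+ and lin- cells were sorted apart from the same skin, and the sort also used CD45 and the basal integrin Itga6. Cells of GFP-expressing mice were mixed in as a buffer and removed by the sort. Wounds were full-thickness wounds of the back, sampled at days 6, 9 and 11, and unwounded skin (day 0) came from animals that also gave the day 9 and day 11 wounds. Which animal gave which unwounded sample is not stated, so the 5 wound and 2 unwounded sets were treated as separate although they are not independent. A mouse set is the cells of 1 day and replicate, and the day 6 labels name no replicate. By the study's methods day 6 comprised separate replicates, each from several mice, which are merged here as 1 set. Replicate 1 of days 0, 9 and 11 formed the first batch and replicate 2 and day 6 the second batch.

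Values are parts per 1000000 of a cell's total (ppm). In the first batch they derive from read counts, and in the second batch from values already divided by gene length, so that levels were compared within a batch or as ratios within a mouse set. Members had 913133 to 8228170 reads (median 3279980) and 651 to 4833 detected genes (median 2993). Of the 52, 4 had under 1000000 reads, and 1 had over 50% of its reads on ribosomal RNA (51.5%). Ribosomal RNA took at least 8.87% of reads in first-batch members and at most 0.292% in second-batch members. A Smart-seq2 library carries no molecular identifiers, and a gene absent from a cell may have been missed.

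The 5 markers fitted most but not all members. At over 100 ppm, Ly6g6c, a small Ly6 family protein, was found in 50 of 52 cells, Sprr1a, a cornified envelope precursor, in 46, Krtdap, a secreted protein of differentiating keratinocytes, in 45, Krt79 in 44 and Calm4, a calmodulin-like protein, in 43. All 5 passed this level in 30 members, 4 in 15, 3 in 5, 2 in 1 and 1 in 1, whereas 11 of 115 uHF-I and 4 of 369 IFE-B cells had all 5. Krt79 was the marker that did not hold across the pool, with 3 of 8 IFE-DI and 0 of 2 IFE-DII cells. The member with a single marker was an IFE-DI cell of day 9 replicate 2 that had Calm4 at 4090 ppm and 0 for Krtdap, Krt1 and Krt10. A lin- uHF-III cell of the same mice had Ly6g6c and Krt79 but 0 for Sprr1a, Krtdap, Calm4, Cst6 and Defb6. In the authors' clustering 49 members lay in cluster 3 and 3 elsewhere.

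The markers lie on different chromosomes. In GRCm38.p6, Sprr1a is at chr3:92483954-92485881, Krtdap at chr7:30787905-30791089, Calm4 at chr13:3837757-3838671, Ly6g6c at chr17:35067325-35070048 and Krt79 at chr15:101929332-101940324. Their promoters, taken as the 250 bases before the RefSeq gene start, were searched on both strands for TGANTCA, the site of AP-1, a factor long studied in epidermal differentiation. The letters AGATAA, a core site of the family Gata6 belongs to, were searched too. The first motif reads the same on both strands. The Sprr1a and Krtdap promoters are shown because they are the marker promoters that hold the AP-1 letters, in capitals, at chr3:92485882-92486131 on the minus strand and chr7:30787655-30787904 on the plus strand.
Sprr1a: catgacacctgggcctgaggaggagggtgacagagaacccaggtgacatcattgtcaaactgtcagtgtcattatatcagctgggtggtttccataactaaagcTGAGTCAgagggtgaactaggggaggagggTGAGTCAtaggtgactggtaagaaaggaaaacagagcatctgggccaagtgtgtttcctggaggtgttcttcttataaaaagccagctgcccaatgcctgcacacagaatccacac
Krtdap: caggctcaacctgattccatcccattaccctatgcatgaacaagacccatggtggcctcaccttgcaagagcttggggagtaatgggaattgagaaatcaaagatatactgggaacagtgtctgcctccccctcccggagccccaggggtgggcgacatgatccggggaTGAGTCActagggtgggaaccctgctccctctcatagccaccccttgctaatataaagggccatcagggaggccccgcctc
The matches begin 146 and 116 bases before the gene start in Sprr1a and 81 bases before it in Krtdap. The other 3 marker promoters held no AP-1 letters, and none of the 5 held the GATA letters. Over all 27025 promoters of this length 6.87% held TGANTCA and 10.3% held AGATAA. Among genes higher in the differentiated cells than in IFE-B cells of every mouse set, 10 of 98 promoters (10.2%) held TGANTCA and 7 (7.14%) held AGATAA. Among genes lower in every set the numbers were 21 (3.92%) and 28 (5.22%) of 536. Among genes higher than in uHF-I cells of every set they were 7 (17.1%) and 2 (4.88%) of 41. These are counts of letters, not of bound sites, and they were not tested.

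In every mouse set, differentiated cells were more frequent among lin+ than among lin- cells. Of lin+ cells they were 3 of 47 and 3 of 46 at day 0, 8 of 93 at day 6, 4 of 42 and 13 of 44 at day 9, and 4 of 32 and 6 of 47 at day 11, with replicate 1 given before replicate 2. Of lin- cells they were 0 of 47 and 2 of 48 at day 0, 3 of 93 at day 6, 1 of 28 and 3 of 44 at day 9, and 1 of 26 and 1 of 47 at day 11. The 0 of 47 allows a share of up to 6.38%, and the exact 95% interval of the largest share, 29.5%, ran over 16.8% to 45.2% (Clopper-Pearson, counting error only). The mean over sets was 12.3% in lin+ and 3.39% in lin- cells, a difference of 8.87 percentage points ± 6.64 (SD, n = 7) that was positive in 7 of 7 sets (exact two-sided sign-flip permutation test, p = 0.0156, the smallest that 7 pairs allow). Without day 9 replicate 2 it was 6.56 points ± 2.85 (SD, n = 6). These are shares of sorted cells and not of the skin. The paper chose a low drug dose to label differentiated cells expressing Gata6, which lie in the upper follicle and sebaceous duct. A lin+ excess of follicle identities is thus partly set by the label, which the test does not take into account. Day 0 shares mice with days 9 and 11, so the 7 pairs are not independent.

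The excess lay in the follicle identities. uHF-III cells took 7.74% of lin+ and 0.325% of lin- cells (difference 7.41 points), and uHF-II cells 3.76% and 0.451% (3.30 points). Each was higher in lin+ cells of 7 of 7 sets (exact sign-flip permutation test, p = 0.0156, 0.0313 adjusted over the 4 identities). IFE-DI cells ran the other way, with 0.771% of lin+ and 2.17% of lin- cells, lower in lin+ cells of 5 sets (difference −1.40 points, exact permutation p = 0.0625, adjusted p = 0.0833). Both IFE-DII cells were lin-. Of the 41 lin+ members 39 carried a follicle identity (95.1%, exact 95% interval 83.5 to 99.4%), and of the 11 lin- members 3 did (27.3%, 6.02 to 61.0%). Only 2 mouse sets had at least 3 members of each lineage, where the follicle share averaged 96.2% of lin+ and 33.3% of lin- members, too few for a test. Over the 6 sets with any member of each lineage, chosen after seeing the data, it averaged 94.6% of lin+ and 19.4% of lin- members and was higher in lin+ members of 6 of 6 (difference 75.1 points ± 21.0 SD, exact sign-flip permutation test, p = 0.0313, the smallest possible), with 1 to 3 lin- members in each.

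**Figure D1:**
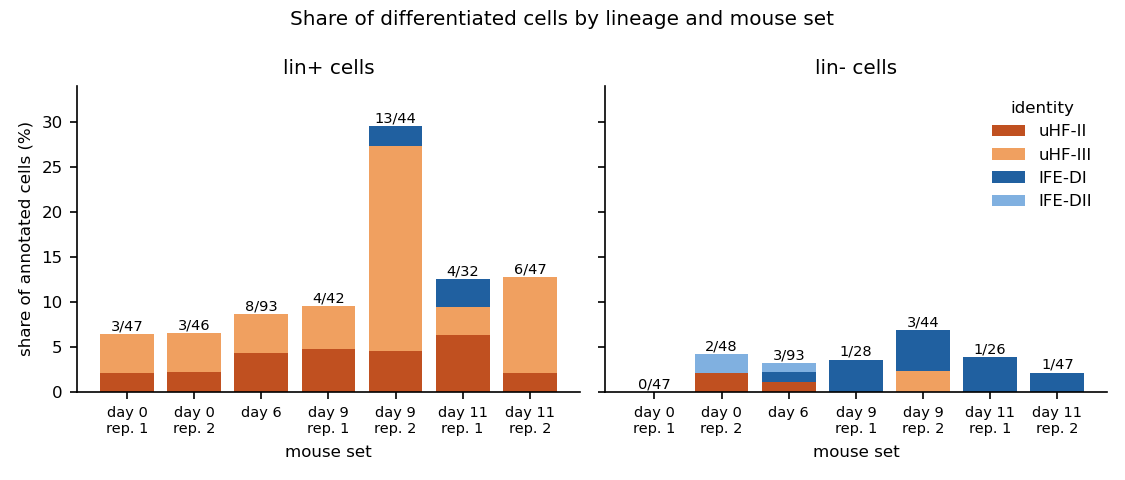
Share of annotated cells (y axis, percent) that were differentiated in each mouse set (x axis), for lin+ cells on the left and lin- cells on the right. Colours are the 4 identities and the numbers are members over cells. The lin+ bar of day 9 replicate 2 reaches 29.5%, mostly uHF-III, and IFE-DI and IFE-DII fill most of the lin- bars.

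The share of differentiated cells was not shown to differ between wounds and unwounded skin. Among lin+ cells the wound sets averaged 14.6% and the unwounded sets 6.45%, and 5 of 5 wound sets lay above both unwounded sets (difference 8.14 points, exact two-sided permutation test, p = 0.238, the smallest possible being 0.0476). Without day 9 replicate 2 the difference was 4.40 points. Among lin- cells the averages were 3.92% and 2.08% (1.83 points, exact permutation p = 0.429). IFE-DI cells were seen in wounds alone, 8 of 44 wound members and 0 of 8 unwounded members, where 0 of 8 allows up to 37.5%. Among lin- cells, IFE-DI averaged 3.03% in the 5 wound sets and 0% in the 2 unwounded sets (exact permutation p = 0.0476, adjusted over 4 identities 0.190).

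Against IFE-B cells, the differentiated cells had more of the 5 markers and of many early suprabasal and upper follicle genes, and less of many basal and cell cycle genes. The authors assigned identities from the expression of these same cells, so the contrasts between identities are descriptions with no test. Sprr1a averaged 7488, 2647 and 1747 ppm in first-batch differentiated cells at days 0, 9 and 11, against 181, 25.7 and 81.9 in IFE-B cells. In the second batch it averaged 46791, 31654, 36751 and 19409 at days 0, 6, 9 and 11, against 64.4, 240, 48.0 and 490 in IFE-B cells. The lowest differentiated set stood above the highest IFE-B set within each batch, and the log2 ratio averaged 6.82 over the 7 sets (lowest 4.40, highest 9.55).

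Krt79 averaged 27265, 21912 and 20124 ppm in the differentiated cells of the first batch and 9529, 6860, 6844 and 8288 in those of the second batch. In IFE-B cells it averaged 54.5, 817 and 200, and 86.5, 231, 358 and 528. The Krt79 ratio was the steadiest of the 5 after Calm4, with log2 values of 3.97 to 8.94 (mean 5.74). Krtdap was the weakest in this contrast, at 909, 2653 and 3139 ppm against 788, 656 and 336 in IFE-B cells of the first batch, and 23252, 46012, 21755 and 29785 against 160, 989, 1431 and 3333 in the second batch. Its log2 ratio averaged 3.61 and was only 0.21 in day 0 replicate 1. Ly6g6c (mean log2 ratio 7.06, range 4.52 to 12.38) and Calm4 (3.87, highest 5.73) completed the markers, all 5 higher in 7 of 7 sets. Ly6g6c had no read in the IFE-B cells of day 11 replicate 1, which sets its highest ratio through the value of 1 added before the log.

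**Figure D2:**
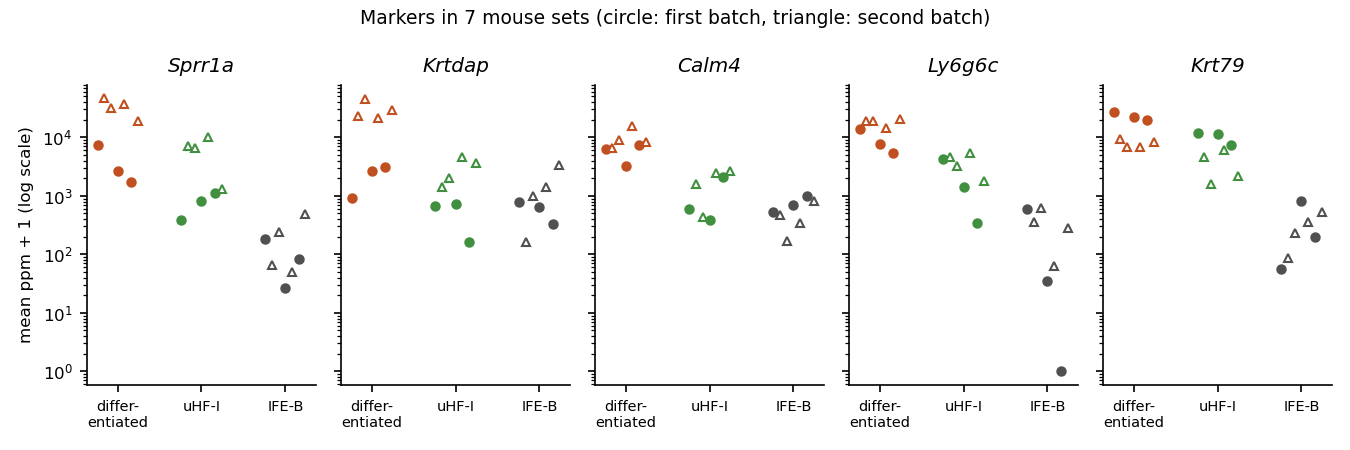
Mean level in ppm plus 1 (y axis, log scale) of the 5 markers in differentiated, uHF-I and IFE-B cells, 1 point per mouse set, with circles for the first batch and triangles for the second. Within a batch the differentiated sets stand above the IFE-B sets for each marker, for example Sprr1a at 1747 to 7488 against 25.7 to 181 ppm in the first batch.

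Of 3603 genes at 50 ppm or more in the higher identity, 131 (3.64%) were higher and 729 (20.2%) lower in the differentiated cells than in IFE-B cells of all 7 mouse sets. The median log2 ratio over genes lay between −2.08 and −0.42 in the sets, so most genes leaned low and the ratios are read relative to that. When each set's value was the mean of the cells' log2 values, 247 genes were higher and 374 lower, and the direction of single genes near the median is therefore a matter of the scale. The 10 highest named genes were Cst6, a cysteine protease inhibitor of the upper follicle (mean log2 ratio 8.05), Klk7, a kallikrein of the stratum corneum (7.35), Ly6g6c, Sprr1a, Teddm3 (6.20), Gsdma, a gasdermin of upper epidermis (6.06), Krt77, a suprabasal keratin (6.05), Krt79, Crabp2, a retinoic acid carrier (5.58), and Skint2 (5.37). Cst6 made up 119562, 45906 and 5255 ppm of differentiated cells in the first batch, against 53.7, 118 and 52.9 of IFE-B cells. It stood at 34997, 29828, 26688 and 35530 in the second batch, against 389, 447, 35.0 and 137.

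At the low end were Fth1, the ferritin heavy chain (−8.25), Crip1 (−7.75), the mitotic genes Cdca8 (−7.59), Cenpa (−7.29) and Ccnb2 (−7.29), the cadherin Cdh13 (−7.55), Smoc2 (−7.36), Ly6a (−7.17), Postn (−7.14) and Krt5 (−7.11). Fth1 has processed copies in the genome that can share its reads, and its value is uncertain. Krt5, the basal type II keratin, averaged 0.342, 488 and 1021 ppm in first-batch differentiated cells, against 6960, 7340 and 8330 in IFE-B cells. It had a read in 16 of 52 differentiated cells, 82 of 115 uHF-I cells and 336 of 369 IFE-B cells. Its partner Krt14 averaged −1.29, which pools wound and unwounded sets whose Krt14 levels differed in differentiated cells, as given below.

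By gene list, early suprabasal genes leaned high. Of 19 at the level, 11 were higher in 7 of 7 sets and none lower (median log2 ratio 2.88, against −1.06 over all genes), among them Krt77, Sbsn (4.42), Them5 (4.20), Calm4, Krtdap, Dapl1 (3.53) and Lypd3 (1.81). Upper follicle and sebaceous duct genes had 8 of 13 higher (median 2.73), with the defensin Defb6 (4.79), the vacuolar ATPase subunit Atp6v1c2 (3.86), Krt17 (3.23), Defb1 (2.73) and Plet1 (1.64) beside Cst6 and Krt79. Of 19 proteases and inhibitors 6 were higher and 1 lower. The desquamation kallikreins Klk7, Klk5 (5.30) and Klk11 (2.44), the cathepsin Ctsd (2.36) and the inhibitors Cst6 and Cstb (2.26) were higher, and the cathepsin Ctsl (−3.81) was lower. Of 9 barrier lipid genes 4 were higher, the ceramidase Acer1 (5.08), the triglyceride enzyme Dgat2 (4.34), the lipoxygenase Alox12e (3.16) and the elongase Elovl1 (2.48).

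Of the cornified envelope, the late genes Lor and Flg were rarely read. Of 47 listed envelope genes 34 had values in both batches, 12 reached the level and 2, Sprr1a and Scel (1.46), were higher in every set. The list's median log2 ratio was 2.47, against −1.06 over all genes, but it was −2.10 in day 11 replicate 1. Lor, the major protein of the mature envelope, had a read in 1 of 52 members, 3 of 115 uHF-I and 6 of 369 IFE-B cells, and Flg, which gives filaggrin, in 3, 1 and 6. Ivl, an early envelope protein, had a read in 12 members, 20 uHF-I and 13 IFE-B cells. The Lor share was 1.92% in members and 1.63% in IFE-B cells, and the Flg share 5.77% and 1.63%, at a median depth of 3279980 reads in members and 3171070 in IFE-B cells.

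Genes of cell junctions and of the switch to differentiation moved in part. Of 7 desmosome genes 5 were higher than in IFE-B cells of every set, Dsg1a (3.15), Dsp (1.92), Pkp1 (1.64), Jup (1.37) and Perp (1.17). Of 13 transcription factors of differentiation 3 were, Ovol1 (3.30), Cebpa (1.78) and Grhl1 (1.45). Gja1, a connexin of gap junctions, was lower (−5.18). All 16 cell cycle genes at the level were lower in every set (median −5.55), as were 12 of 15 basal layer genes (median −5.12), among them the laminin chain Lamb3 (−6.00), the hemidesmosome genes Col17a1 (−5.81) and Itgb4 (−4.90), Krt15 (−5.70) and Trp63 (−1.89), the master regulator of the basal state. The Notch ligands Jag2 (−5.42) and Jag1 (−2.99), 4 of 8 S100 genes, among them S100a6 (−4.92), 5 of 10 genes of Myc and ribosome biogenesis and the class II genes Cd74 (−5.83) and H2-Ab1 (−4.76) were lower too. Of all genes at the level, 20.2% were lower in every set. Mki67, a proliferation marker, had a read in 3 of 52 members and 108 of 369 IFE-B cells. The 26 listed cell cycle genes summed to 12.6 to 108 ppm in differentiated sets and 951 to 3351 in IFE-B sets. Most of the 16 thus reached the level through IFE-B cells, a choice that favours a lower ratio. With means of log2 values, 14 of 16 cell cycle and 11 of 15 basal layer genes were lower in every set (medians −1.83 and −2.44). The class II list then had 1 of 3 genes lower (median −0.89, from −4.76) and the Myc list 3 of 10 (−1.13, from −1.93). The S100 list kept 4 of 8 (−0.28, from −2.22) and the Notch list 2 of 5 (−1.18, from −2.01). The median over all genes was then −0.05.

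**Figure D3:**
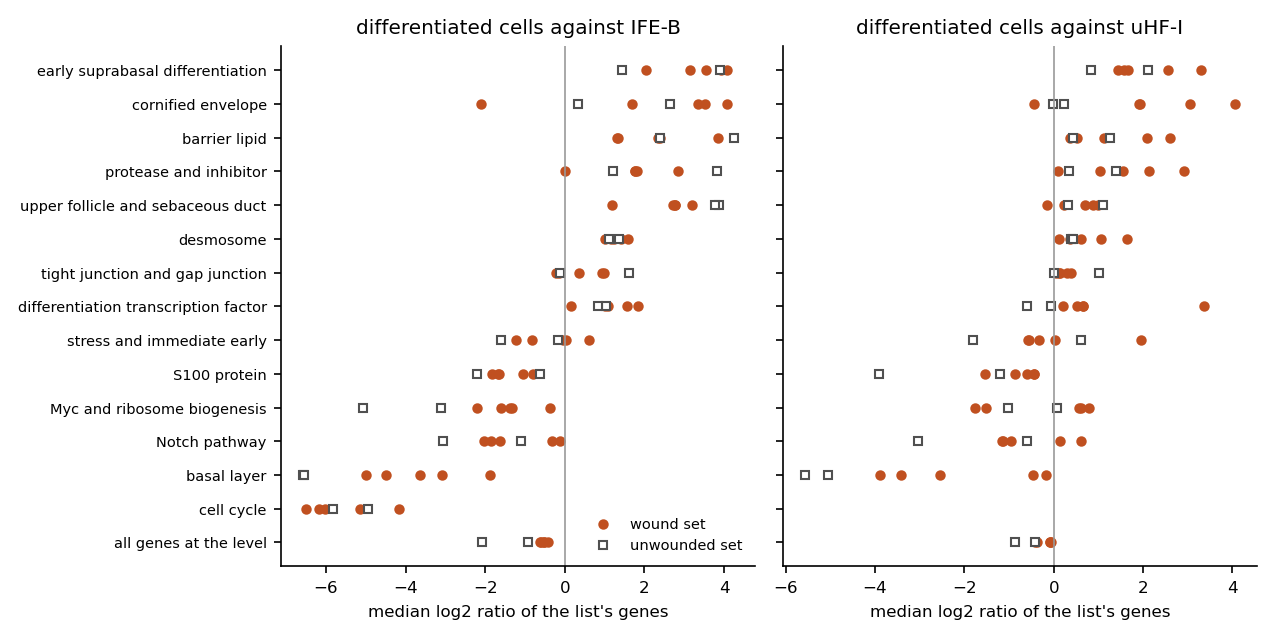
Median log2 ratio (x axis) of the genes of each list in differentiated cells against IFE-B cells on the left and against uHF-I cells on the right, 1 point per mouse set, wound sets as filled circles and unwounded sets as open squares. The cell cycle list had too few genes at the level for the right panel. Suprabasal and upper follicle lists sit to the right against IFE-B (medians over genes 2.88 and 2.73), while the upper follicle list lies near 0 against uHF-I (0.31).

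The distance to uHF-I cells was smaller and of another make-up. Of 3415 genes at the level 56 (1.64%) were higher and 200 (5.86%) lower than in uHF-I cells of 7 of 7 sets, with a median over genes of −0.87 to −0.06 in the sets. With means of log2 values the counts were 161 and 89. The early suprabasal list kept 7 of 19 genes higher in every set (median log2 ratio 2.63, against −0.54 over all genes), namely Krtdap (2.92), Calm4 (2.71), Dapl1 (2.63), Ly6g6c (2.53), Sbsn (1.99), Dmkn (0.92) and Ly6d (0.57). Of 12 upper follicle genes 3 were higher, Cst6 (2.64), Krt17 (1.75) and Krt79 (1.26), and the list's median was 0.31. Defb6 overlapped, at 3639, 1755 and 757 ppm in the differentiated cells of the first batch, against 5774, 3433 and 2496 in uHF-I cells, and at 16444, 29850, 13231 and 15890 against 14732, 17326, 17344 and 6712 in the second batch.

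Krt79 was present in uHF-I cells at 11793, 11641 and 7282 ppm in the first batch and 4663, 1607, 6106 and 2184 in the second. The differentiated value was higher in each of the 7 sets, but the log2 ratio was only 0.16 at day 9 replicate 2, so in that set the levels were close. Krt79 was also the least specific of the markers by detection, with a read in 97 of 115 uHF-I cells beside 46 of 52 members. Sprr1a separated the groups further, with a log2 ratio of 2.48 (range 0.63 to 4.27) and a read in 47 members and 51 uHF-I cells.

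On the high side against uHF-I cells, Acer1, an alkaline ceramidase, led with a mean log2 ratio of 5.73. It stood at 800, 205 and 282 ppm in the differentiated cells of the first batch, against 0, 3.08 and 0 in uHF-I cells, and at 72.2, 105, 113 and 130 against 2.15, 0, 15.4 and 20.8 in the second. Acer1 was picked by this same ratio and reached the level through the differentiated cells, a choice that favours a high ratio. It had a read in 24 of 52 members, 5 of 115 uHF-I cells and 12 of 369 IFE-B cells. Rnf39 (4.49), Klk11 (4.41), the acyltransferase Agpat4 (4.11), Skiv2l (3.65), malic enzyme Me1 (3.63), Plxdc2 (3.48), Gsdma (3.41), Snrnp25 (3.38) and the chloride channel protein Clic3 (3.36) followed. Ovol1, a repressor that promotes exit from the basal state, was the only one of 13 transcription factors higher in every set (3.01). The ends of the low side were Cdh13 (−7.36), Fth1 (−6.44), Igfbp4 (−6.23), Moxd1 (−6.12), Cldn8 (−5.94), Postn (−5.92), Krt5 (−5.81), S100a13 (−5.58), Siva1 (−5.48) and Sfxn3 (−5.33), and of 10 basal genes 4 were lower in every set, Krt5, Krt15 (−5.32), Mt2 (−3.80) and Mt1 (−1.56).

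Within the pool, the follicle and epidermal members differed in keratins, duct genes and metallothionein. The 3 mouse sets with at least 2 of each (day 6, day 9 replicate 2 and day 11 replicate 1) gave 501 genes (15.2%) higher and 298 (9.03%) lower in uHF-II and uHF-III than in IFE-DI and IFE-DII cells of 3 of 3 sets, of 3300 at the level. With 7 epidermal members in these sets, single cells weigh heavily. Krt17 (mean log2 ratio 11.23), Krt79 (10.34), Krt14 (9.80), Defb6 (8.37), Ier3 (7.97), Defb1 (7.71), Igfl3 (7.05), Gstm2 (7.00) and Sox9, a follicle transcription factor (6.91), were at the high end. Krt17, Krt79 and Krt14 were near 0 in the epidermal members of day 6 and day 11 replicate 1, so the added 1 weighs on their ratios. The member with most Krt14 was an IFE-DI cell of day 9 replicate 1 (79712 ppm), a set outside this contrast. Of 13 upper follicle genes 9 were higher (median 6.10 against 0.45 over all genes), and so were 8 of 15 stress and immediate early genes (median 2.85), among them Ier2 (4.12), Jun (3.27) and Egr1 (2.95). Of 19 early suprabasal genes 8 were lower and 2 higher, with Krt1 (−6.03), Krt10 (−3.96), Krtdap (−1.35) and Calm4 (−0.97) lower.

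Mt4, the metallothionein of stratified epithelium, was found in epidermal members alone. It had no read in 42 uHF-II and uHF-III cells, which allows a share of up to 7.14%, and reads in 6 of 10 IFE-DI and IFE-DII cells (mean log2 ratio −10.48). Ndufa4l2, a mitochondrial protein (−10.62), Gsta2 (−6.87), Bckdha (−6.85), Rrp8 (−6.35), Hs3st6 (−6.34), Ggct (−6.33), the connexin Gjb5 (−6.29), Anapc16 (−6.28) and Lancl1 (−6.18) were the others at the low end. Sprr1a was higher in the follicle members (2.62) and Ly6g6c was about level (0.10, with both signs among the sets).

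Each identity also had its own profile, given here as the lowest, median and highest of the second-batch cells. Among 10 uHF-II cells Dapl1, an early suprabasal gene, ran over 3753, 16496 and 43078 ppm, and among 22 uHF-III cells over 0, 0 and 7363. The ranges overlapped in part, and 12 of these uHF-III cells had no read of it while each of these uHF-II cells did. Cst6 ran the other way, at 1860, 7103 and 27752 in uHF-II cells and 0, 47956 and 95818 in uHF-III cells. Krtdap stood at 0, 42680.5 and 78948 in uHF-II and 0, 11741 and 67790 in uHF-III cells, and Krt14 at 0.277, 10.1 and 10514 in uHF-II and 2.94, 2636 and 21531 in uHF-III cells. Median Plet1 was 46.6 in uHF-II and 928 in uHF-III cells. In the first batch, with 5 cells of each, Dapl1 ran over 0 to 3422 ppm in uHF-II and 0 to 391 in uHF-III cells. Krt14 there ran over 260 to 61365 and 214 to 27815, and Cst6 over 0 to 76891 and 24768 to 217644.

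Among the 5 second-batch IFE-DI cells Krt10 ran over 0, 12207 and 24962 ppm and Krt1 over 0, 7602 and 16289, the 0 in both being the member with a single marker. The 2 IFE-DII cells had Krt10 at 14259 and 25153, Krt1 at 3026 and 5414, and Krtdap at 64616 and 147421. Krt77 stood at 3137 and 3888 in IFE-DII cells and had a read in 1 of the 5 IFE-DI cells, and with 2 IFE-DII cells no more can be said of it. The keratin switch was not exclusive, since Krt79 and Krt10 both exceeded 100 ppm in 22 of 52 members, Krt79 alone in 22, Krt10 alone in 6 and neither in 2. Of the 22 members with both, 9 were uHF-II, 10 uHF-III and 3 IFE-DI. An IFE-DI cell of day 9 replicate 1 had Krt14 at 79712, Krt79 at 10625 and Krt17 at 7531 ppm beside Krt1 at 6700.

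**Figure D4:**
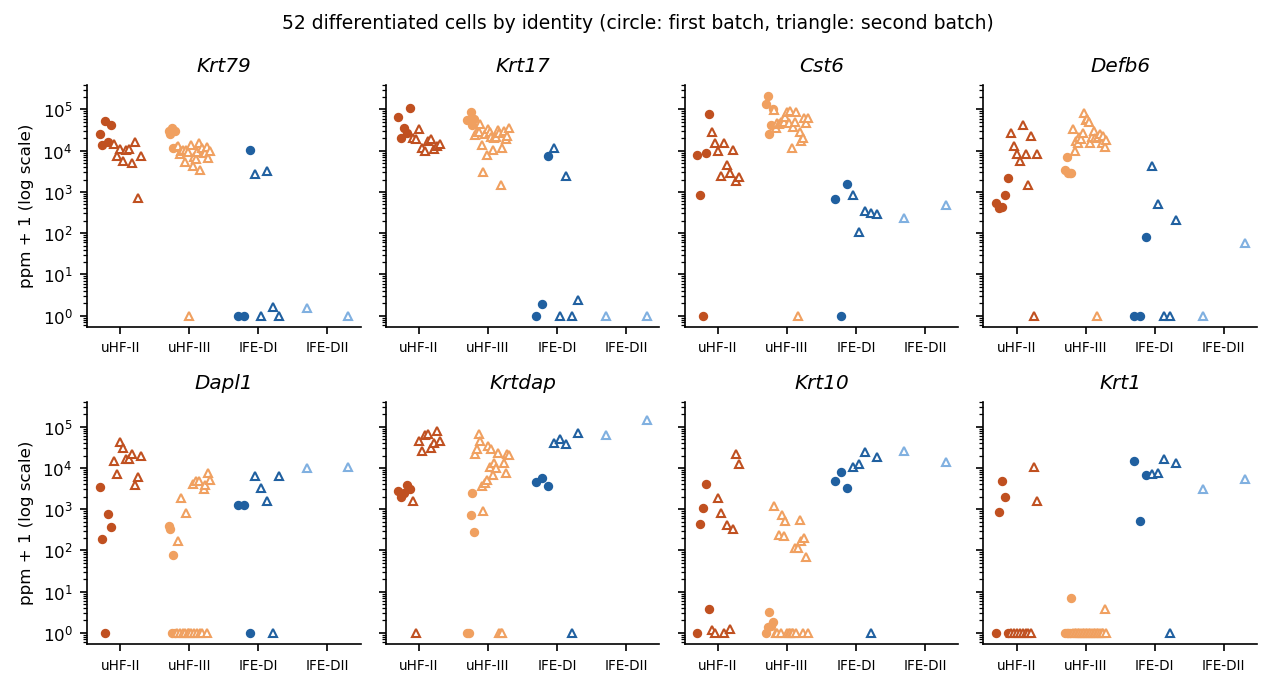
Level in ppm plus 1 (y axis, log scale) of 8 genes in each of the 52 members, by identity (x axis), with circles for the first batch and triangles for the second. Krt79 and Krt17 are high in uHF-II and uHF-III cells, Dapl1 in uHF-II cells (second-batch median 16496), Cst6 in uHF-III cells (47956), and Krt10 and Krt1 in IFE-DI and IFE-DII cells.

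Gata6, the gene that set the lineage label, was rarely read in members. It had a read in 11 of 52 members, 25 of 115 uHF-I cells and 46 of 369 IFE-B cells, and within the members in 10 uHF-III and 1 uHF-II cells and in none of the 10 IFE-DI and IFE-DII cells. Markers of immune, stromal, endothelial, pigment and Merkel cells were low, while sebaceous gland and outer bulge markers were read in every set. The summed level of the measured immune markers reached at most 34.6 ppm in any differentiated set (10 of 12 listed genes measured, 5 at 0 in every member), against 0.965 to 186 in IFE-B sets. The melanocyte list reached 39.8, fibroblasts 7.85, endothelium 0.161 and Merkel cells 0.109. Sebaceous gland markers summed to 13.3 to 688 ppm in differentiated sets and 186 to 1224 in IFE-B sets, and outer bulge markers to 69.0 to 391 and 436 to 1118. Markers of the inner root sheath and companion layer summed to 0.207 to 2607, with a median over sets of 1.94.

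For lin+ against lin- members, only day 6 and day 9 replicate 2 had at least 3 of each, so values are given first. At day 6, Krt17 ran over 7898, 18203 and 34326 ppm (lowest, median, highest) in 8 lin+ members, against 0, 0 and 9946 in 3 lin- members. At day 9 replicate 2 it ran over 1.35, 19317 and 35425 in 13 lin+ members, against 0, 2464 and 26192 in 3 lin- members. Cst6 had medians of 28665 in lin+ and 494 in lin- members at day 6, and of 28398 and 313 at day 9 replicate 2. Ly6g6c ran over 8912 to 29766 in lin+ and 0 to 6133 in lin- members at day 9 replicate 2. Those 3 lin- members include the member with a single marker (0 ppm) and the uHF-III cell that lacked Sprr1a (4536 ppm), both described above. At day 6 its lineages overlapped, at 6687 to 45314 in lin+ and 9266 to 24419 in lin- members. How many of all genes separate among 3 lin- members was not counted. Krtdap turned between the sets, with a log2 difference of −1.53 at day 6 and 0.92 at day 9 replicate 2, and Krt10 was lower in lin+ members of both (−5.11 and −1.01). Follicle identities prevailed among lin+ members as given above, and lineage and identity cannot be told apart in so few cells. A paired limma fit of these 2 sets called 0 of 5252 genes (439 at an unadjusted p under 0.05), a paired fit of the 6 sets with any member of each lineage, chosen after seeing the data, called 0 of 7397 (761), and an unpaired fit of 7 lin+ and 2 lin- sets called 0 of 7116 (318).

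The basal keratin Krt14 had a higher mean in differentiated cells of each wound set than in those of the unwounded set of its batch. Krt14 averaged 25519 and 26124 ppm in first-batch wound sets (days 9 and 11), against 4514 in the unwounded set. It averaged 1575, 3213 and 4523 in second-batch wound sets (days 6, 9 and 11), against 298. The fold change from limma with the batch as a term was 2.90 on the log2 scale (standard error 0.39, adjusted p = 0.0206), with a read in 41 of 44 wound and 7 of 8 unwounded members. In IFE-B cells the same comparison gave 0.29 (standard error 0.33, adjusted p = 0.717, limma) and in uHF-I cells 0.95 (standard error 0.26, adjusted p = 0.439, limma). When any 1 mouse set was left out the log2 fold change of Krt14 lay between 2.52 and 3.25 and its adjusted p between 0.0598 and 0.154 (limma), so each set was needed for the call. With edgeR the fold change was 3.41 on the log2 scale and the adjusted p 0.150. In limma the adjusted p was 0.3995 without the replicate block, 0.253 with means of log2 values and 0.151 without the filter. Single cells weighed on the means. Without the highest cell of each set, Krt14 averaged 11970.5 and 17314 ppm in first-batch wound sets, against 237 in the unwounded set, and 681, 1991 and 3264 in second-batch wound sets, against 15.7.

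In all, limma called 68 of 6726 genes (1.01%) higher and 0 (0%) lower in wound than in unwounded members, with 1036 at an unadjusted p under 0.05. The median log2 fold change over all genes was 1.17, so values are read against that. edgeR on summed reads called 0 genes, with 892 at an unadjusted p under 0.05, and DESeq2 called 1433 higher and 170 lower. In data simulated from edgeR's estimate of the spread, with no batch difference, DESeq2 called 322 unchanged genes and limma 1. In those data limma and edgeR found 0% of the changed genes, which were set 4 or 16 fold higher. Larger changes were not simulated. The changed genes there were drawn from those of lower level. The DESeq2 counts are not relied on. Leaving out any of the 5 wound sets gave 0 calls, and leaving out day 0 replicate 1 or 2 gave 66 or 414 higher. Of the 68 genes, 63 had a read in 0 or 1 of the 8 unwounded members and 43 in none. By level, 63 averaged under 1 ppm over the unwounded sets and so passed the filter for low genes through wound sets alone. That choice favours genes higher in wounds. Without the filter limma called 39 higher and 1 lower of 13897 genes, and the part of the filter in the one-sided count was not tested further. The unwounded members had a median of 2057 detected genes and 4270360 reads, against 3067 genes and 3113970 reads in wound members, and the part of this difference in the calls was not tested.

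Klk8, a kallikrein, was the gene with the highest fold change. It averaged 1353 and 1912 ppm in first-batch wound sets and 92.6, 703 and 324 in second-batch wound sets, against 0 in both unwounded sets (adjusted p = 0.0189, limma). It had a read in 23 of 44 wound members and 0 of 8 unwounded members, which allows a share of up to 37.5%. S100a6, a calcium-binding protein of proliferating cells, stood at 1504 and 111, and at 103, 453 and 495, in wound sets, against 0.0710 and 0 in unwounded sets (adjusted p = 0.0214, limma). It was read in 11 of 44 wound members, so a minority of cells carried the level. Krt5 stood at 488 and 1021, and at 14.0, 32.2 and 55.2, in wound sets, against 0.342 and 0.0472 in unwounded sets (adjusted p = 0.0488, limma), with reads in 13 of 44 wound and 3 of 8 unwounded members. Its level in wound members remained below that of IFE-B cells of the same mice, 1890 to 8330 ppm.

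**Figure D5:**
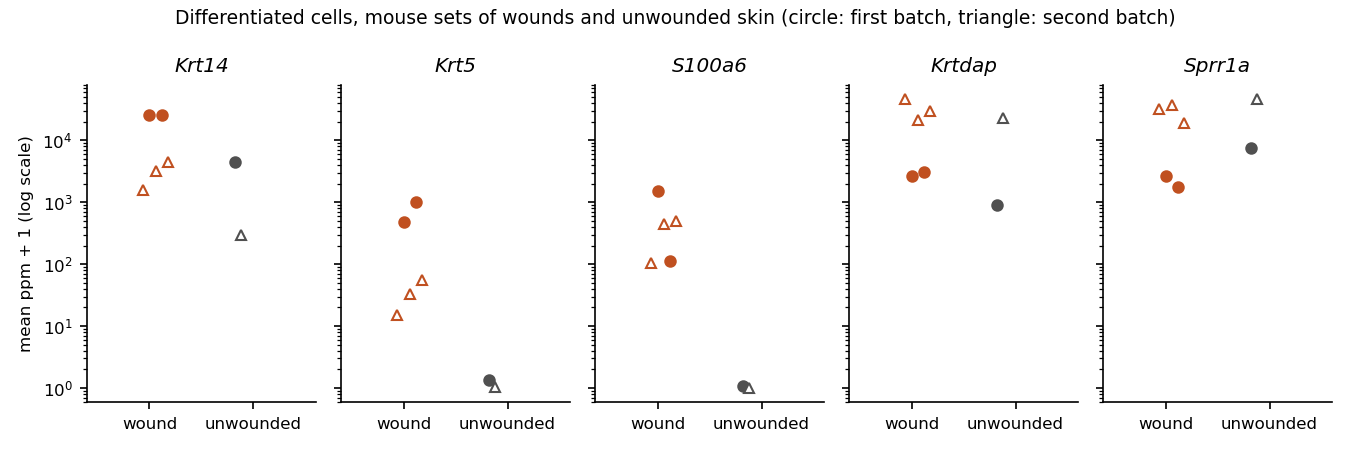
Mean level in ppm plus 1 (y axis, log scale) in differentiated cells of wound sets (left in each panel) and unwounded sets (right), with circles for the first batch and triangles for the second. Krt14, Krt5 and S100a6 are higher in each wound set than in the unwounded set of its batch, and Krtdap and Sprr1a did not pass the test.

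Most genes that passed were read in 0 or 1 of the unwounded members. Among those with the 10 largest fold changes beside Klk8 and S100a6 were Mrpl28 and Mrps24, of the mitochondrial ribosome, Mcrip1, Psph, of serine synthesis, Atp6ap1, a subunit of the vacuolar ATPase, Acaa2, of fatty acid oxidation, Slc25a4, the ADP/ATP carrier, and Park7, a redox protein. Slc25a4 was read in 21 of 44 wound and 0 of 8 unwounded members, Park7 in 23 and 0, and Atp6ap1 in 31 and 1 (adjusted p = 0.0206, 0.0206 and 0.0189, limma). Rpl8, a ribosomal protein gene with processed copies that can share its reads, had reads in 41 of 44 wound and 5 of 8 unwounded members and was 2.72 higher on the log2 scale in wounds (SE 0.45, limma adjusted p = 0.0273). Rpl8 and Krt14 were thus the called genes read in most unwounded members.

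The markers of the differentiated state did not pass in this comparison. Sprr1a had a log2 fold change of −1.23 (adjusted p = 0.117), Krtdap of 1.00 (0.238), Ly6g6c of −0.58 (0.336), Krt79 of −0.38 (0.317) and Calm4 of 0.20 (0.803, limma). Of 19 early suprabasal genes tested none passed (median −0.02, against 1.17 over all genes), nor did any of 14 cornified envelope genes (median −0.20) or 14 upper follicle genes (median −0.38). Of 12 basal genes 2, Krt14 and Krt5, were higher (median 1.79). None of 13 genes of Myc and ribosome biogenesis passed (median 3.06). The wound keratins Krt6a (2.55, adjusted p = 0.664) and Krt16 (2.18, adjusted p = 0.508) did not pass either, and Krt6a and Krt6b are near-identical copies whose reads may be split.

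The wound difference was also set against that in the other identities of the same mouse sets. Minus the IFE-B difference, 26 of 10004 genes (0.260%) were higher and 0 lower in limma (1158 at an unadjusted p under 0.05, median over genes 0.69). Krt5 was among them, with a difference of 7.25 (standard error 0.89, adjusted p = 0.0270, limma). Its mean was higher in wound members, where a minority of cells had a read, as given above. In IFE-B cells it stood at 7340 and 8330, and 2486, 2260 and 1890, in wound sets, against 6960 and 4217 in unwounded sets. S100a6 (7.85, adjusted p = 0.0270, limma) and Rpl8 (2.59, adjusted p = 0.0426, limma) also passed, and Krt14 did not (2.62, adjusted p = 0.0675, limma), nor did Krt79 (−2.80, adjusted p = 0.0689, limma). In IFE-B cells alone 13 genes were higher (0.144%) and 1 lower (0.0110%) of 9054. Minus the uHF-I difference, 0 of 9220 genes passed in either direction (938 at an unadjusted p under 0.05, limma). The smallest p values there belonged to Park7 (adjusted p = 0.0642, limma), Mgst1, Acaa2, Mcrip1 and Srsf7. In uHF-I cells alone 1 gene was higher and 1 lower of 7972 (0.0125% each). The 26 calls against IFE-B cells were not stable. They became 0 with a pseudocount of 10, with means of log2 values or with sets weighted by cells, 2 in uHF-II and uHF-III cells alone, and 0 to 225 when 1 mouse set was left out.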

How the data were processed

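Smart-seq2 libraries of single cells were trimmed with Trimmomatic 0.27, per the submitters' processing notes, and aligned with STAR 2.2 to GRCm38 (mm10) and counted with featureCounts, per the study's methods. In the combined table the authors deposited raw read counts for the first batch (222 cells) and RPKM values for the second (462 cells). A further deposited table holds natural log values and was not used. RPKM tables deposited for the first batch gave gene lengths, from which second-batch reads were recovered (whole within 0.02 reads for 100% of values under 200 reads in the median cell and 99.7% in the lowest). Since the batches hold different units, limma on log2 values was the main test, and edgeR and DESeq2 on summed reads were alternatives. In all, 826 columns of single samples outside the annotated cells were not used, and 6 blank wells had no group.

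Each cell was scaled to a total of 1000000 (ppm), and 315 pairs of symbols were merged, which left 19610 genes in both batches. Means were taken over at least 3 cells per mouse set (2 for follicle against epidermal members), leaving out 4 IFE-B cells under 200 genes. Identity contrasts used log2 ratios of set means plus 1 for genes at 50 ppm or more in the higher identity, and were described by the number of sets of 1 sign. Wound fits used log2(mean ppm + 1), genes over 10 ppm in at least 2 sets, the batch as a term, and Benjamini-Hochberg adjusted p under 0.05. Fold changes on this scale understate changes of low genes. Deviations of same-numbered sets correlated at 0.173, 0.130 and 0.264 in differentiated cells. The batches hold different units, which by itself makes these deviations alike, so the values cannot show a pairing of mice. The replicate number, which is the batch, was kept as a block. Without it 21 genes passed instead of 68. Shares were compared by exact sign-flip or permutation tests, two-sided.

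Text genes were the markers, members of 25 lists (360 genes, 338 measured in both batches), the 10 genes at each end of each identity contrast, and the 10 at each end of genes passing each fit at 20 ppm or more, or the 5 of smallest p, leaving out Gm and Rik names. Some genes that this rule names are not reported here. Members and lists were chosen with earlier results of these data known. Read intervals and limits from 0 (3 cells) cover counting error only. Promoters and positions are from RefSeq, GRCm38.p6. Tools were R 4.3.3, limma 3.58.1, edgeR 4.0.16, DESeq2 1.42.0, Python 3.11.15, numpy 2.4.6, pandas 2.3.3, scipy 1.17.1 and matplotlib 3.10.9. On data simulated from edgeR's estimate of the spread, with no batch difference, limma and edgeR missed genes changed 4 or 16 fold. The changed genes were drawn from those of lower level. DESeq2 called 322 unchanged genes there and limma 1. A gene that did not pass is thus not shown to be unchanged.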

Additional observations from a re-analysis of the deposited data

Results flagged for a closer look

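Among 49 groups of values examined for a far sample, 3 held one, where chance gives about 1 in 20. The lin+ share of differentiated cells of day 9 replicate 2 was 29.55%, far above the other 4 wound sets at 8.60% to 12.8%. The Ly6g6c log2 ratio of differentiated over IFE-B cells was 12.38 in day 11 replicate 1, where IFE-B cells had no read of it. The Crip1 log2 ratio of differentiated over IFE-B cells was −3.97 in day 9 replicate 2, the least negative of the 7 sets.

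The wound difference in differentiated cells exceeded that in IFE-B cells (limma, adjusted p under 0.05) for the following genes, as a difference of log2 fold changes. These calls were not stable, since 0 genes passed with a pseudocount of 10, with means of log2 values or with sets weighted by cells, and 0 to 225 with 1 set left out. Id3 turned to −0.0420 with means of log2 values. S100a6 stood at 7.85, Krt5 at 7.25, Vkorc1 at 7.17, Ephx1 at 7.17 and Atp6ap1 at 7.35. Among mitochondrial genes, Mrpl28 stood at 7.31, Mrps24 at 7.22, Acaa2 at 7.20, Fam162a at 7.18, Mrpl58 at 6.35 and Mrps28 at 6.32. The DNA polymerase gene Polb stood at 7.58, the transcription regulator Id3 at 6.36, Tceal9 at 6.29, the proteasome gene Psmb5 at 6.28, Lsm4 at 6.21, Gsto1 at 6.10, Selenof at 6.07, Vps25 at 6.03 and Rpl8 at 2.59.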

How the results depend on the processing

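The lin+ excess of differentiated cells kept its direction in each alternative except the epidermal identities: it was −1.40 points for IFE-DI alone, −0.451 for IFE-DII alone and −1.85 for both together, and 6.56 to 9.96 points with 1 set left out. For wound minus unwounded lin- cells, the share difference was −0.827 points for uHF-II alone, −0.827 for IFE-DII alone, −0.372 for uHF-II and uHF-III together and 3.03 for IFE-DI alone, and −0.249 to 3.92 with 1 set left out.

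The 68 genes higher in wound members became 4 with a pseudocount of 10, 39 without the filter, 0 with means of log2 values, 0 with sets weighted by cells, 28 in uHF-II and uHF-III alone, 0 by edgeR and 1433 by DESeq2, and 0 to 414 with 1 set left out. With only cells of at least 1000000 reads and under 50% ribosomal RNA, chosen after seeing the data, they were 41. Genes lower became 1 without the filter and 170 by DESeq2, and 0 to 23 with 1 set left out. The 26 genes in excess of IFE-B became 0 with a pseudocount of 10, 0 with means of log2 values, 0 weighted by cells, 9 with at least 5 cells a set, 9 in lin+ cells alone, 2 in uHF-II and uHF-III alone and 14 in the deeper cells, and 0 to 225 higher and 0 to 38 lower with 1 set left out. Id3 in that contrast reversed to −0.0420 with means of log2 values. The 0 genes in excess of uHF-I became 1 in lin+ cells alone and 2 in the deeper cells, and 0 to 62 higher and 0 to 3 lower with 1 set left out. The cause of these changes was not tested.

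Without the replicate block, 21 genes were higher in wound members, 23 in excess of IFE-B and 3 in excess of uHF-I. For lin+ against lin- members, 0 genes passed with the mouse set as a block in 2 or 6 sets, or without the block. The follicle share difference was 62.8 points over 2 sets and 75.1 over 6 (at least 1 member of each lineage, chosen after seeing the data). IFE-DI or IFE-DII alone gave no wound fit.

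Identity contrasts with means of log2 values gave 247 higher and 374 lower against IFE-B and 161 and 89 against uHF-I, where sets of at least 5 cells gave 100 higher. Leaving out 1 set gave 135 to 180 higher and 761 to 888 lower against IFE-B, and 70 to 100 and 244 to 321 against uHF-I. The Krtdap lin+ difference reversed to 2.66 with means of log2 values. Of values of single genes under the alternatives, 813 kept their call or stayed within the spread, 518 lost the call, 8 gained it, 13 moved by more than the spread and 2 reversed.

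The limits are the 8 unwounded members, the 10 epidermal members, the shared mice of wounds and unwounded skin, the pooled day 6 mice and reads without molecular identifiers.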
